A study of Arabidopsis thaliana with 24 samples.

Results

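The beta-glucosidase genes of Arabidopsis thaliana were followed across 8 groups of leaf samples. They were taken as the probe sets with 1 annotated gene that had a symbol of BGLU and a number, or whose gene description held the words beta glucosidase. The annotation has no description column, so the gene synonyms of RefSeq served as the description. The rule found 21 probe sets for 21 genes among the 22746 tested, 20 by symbol and 1, ATA27, by its synonym BGLU20. RefSeq lists 47 genes with such a symbol or synonym, and those without a 1-gene probe set in the annotation were not analysed here.

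Beta-glucosidases of plants remove a terminal glucose, or a related sugar, from small molecules that are stored or transported in conjugated form. The substrates include glucosinolates, coumarins, flavonols, monolignols (the precursors of lignin) and hormone conjugates. Some members break down glucosinolates to defence compounds when tissue is damaged or attacked, and these are known as myrosinases. Others take part in the turnover of flavonols, in lignification or in the release of abscisic acid.

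The groups were the wild type, Columbia-0, and the tbf1 mutant, whose allele the labels do not name. TBF1 encodes a transcription factor of plant immunity that resembles heat shock factors. Both genotypes were grown on soil for 3 weeks at 22 °C with 16 h of light and 8 h of dark, and the labelled tissue is the mature leaf. In each genotype 1 group was sprayed with 1 mM salicylic acid (SA), a defence hormone, and 1 with water, and both were sampled after 6 h. Another group in each genotype was infiltrated with 10 µM elf18, a bacterial peptide that plants perceive as a sign of infection, and another with water, and both were sampled after 2 h. Each of the 8 groups had 3 arrays, labelled as biological replicates. The labels do not say whether their plants were grown apart, so the tests rest on the variation among the arrays alone.

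The deposited values were centred for each probe set on its median over the 24 arrays. A level below is therefore a log2 value relative to that median, and levels cannot be ranked between genes or set against background. For the same reason the labelled tissue could not be checked by the level of leaf markers. Of the leaf markers listed, the Rubisco activase gene RCA was measured, and of the guard cell markers FAMA, while no epidermis or phloem marker was. Arrays of a group correlated at 0.84 to 0.96. The mean SD of the members was highest in wild type elf18 infiltration, at 0.25, and lowest at 0.08.

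An index of RNA quality was taken as the mean difference between 5′ and 3′ probe sets of 6 control pairs for actin, GAPDH and ubiquitin. The control probe sets are centred as well, so only differences of the index between arrays can be read. The index differed between the groups. The wild type had a mean of 0.78 ± 0.08 (SD, n = 3) in the water spray group and 0.48 ± 0.19 in the SA group, against 0.31 in the water infiltration group and -0.98 ± 0.16 in the elf18 group. The corresponding means of tbf1 were -1.67 ± 0.29 and -1.53 ± 0.05 for the sprayed groups and 0.84 ± 0.07 and -0.34 ± 0.06 for the infiltrated ones. Most differences between treatments or genotypes were thus accompanied by a difference in the index, which is given beside the results. In a fit with the index as a covariate, its slope comes from the differences among arrays within groups. Where groups lie far apart in the index the standard errors widen, so a call lost there does not show that a difference is absent.

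BGLU44 had the widest range of group means among the 21 genes, 4.60 on the log2 scale or 24.3-fold, which was wider than in 99.0% of all probe sets. BGLU40 followed with a range of 3.31, BGLU25 with 2.68, BGLU16 with 1.98 and BGLU42 with 1.48. The ranges of BGLU33, BGLU46, BGLU47 and BGLU15 were 1.24, 1.19, 1.13 and 1.1. These 9 genes lay above the median range of all probe sets. At the other end, 7 genes lay in the lowest 10% of all probe sets, with ranges of 0.22 to 0.41, namely BGLU29, BGLU31, BGLU32, BGLU36, BGLU41, BGLU43 and BGLU45. Whether their probe sets were above background cannot be read from centred values.

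**Figure D1:**
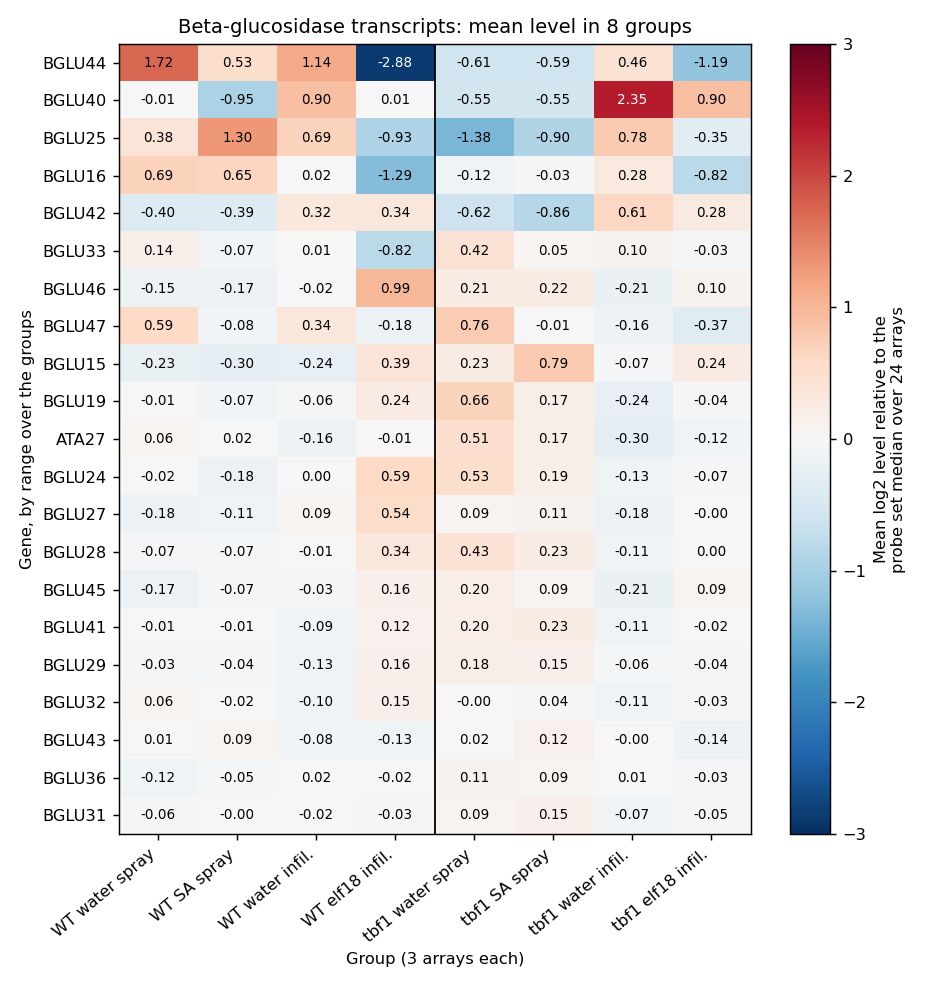
Mean log2 level of each of the 21 genes (rows, ordered by range) in the 8 groups (columns, 3 arrays each), relative to the median of the probe set over 24 arrays, with red for higher and blue for lower. BGLU44 ran from 1.72 in wild type water spray to -2.88 after elf18, BGLU40 reached 2.35 in tbf1 after water infiltration, and the lower rows stayed near 0.

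Of the genes grouped with the atypical myrosinases, BGLU28 and BGLU29 were measured. BGLU28 is known to break down glucosinolates under sulfur deficiency. Its level in wild type was 0.20, -0.06 and -0.16 on the 3 arrays after water infiltration and 0.23, 0.42 and 0.37 after elf18. The groups did not overlap, and the rise was 0.34 ± 0.12 (log2 change ± SE, adjusted p = 0.0188). Of the 6 arrays compared there were 3 whose removal ended the call, the adjusted p then reaching 0.103. In tbf1 BGLU28 was also higher than in wild type after water spray, by 0.50 ± 0.12 (adjusted p = 0.000989). There it read 0.52, 0.16 and 0.61 against -0.08, -0.10 and -0.02. BGLU29, the next gene on the chromosome, rose by 0.29 ± 0.10 with elf18 in wild type (adjusted p = 0.0156), from a mean of -0.13 to 0.16.

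BGLU33 releases abscisic acid from its glucose ester in the vacuole. The wild type arrays read 0.01, -0.17 and 0.20 after water infiltration and -1.28, -0.67 and -0.50 after elf18. All 3 elf18 arrays were below the water arrays, with array 1 the lowest, and the gene fell by 0.83 on the log2 scale (SE 0.19, adjusted p = 0.00058). In tbf1 the elf18 arrays read -0.01, -0.04 and -0.03, and the change of -0.13 ± 0.19 was not called (adjusted p = 0.602). The difference between the genotypes in this response, 0.70 ± 0.26, did not pass the test (adjusted p = 0.0753).

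BGLU42 cleaves the coumarin glucoside scopolin and is known for its part in induced systemic resistance and iron deficiency in roots. None of the SA or elf18 comparisons called it, with changes between -0.34 and 0.03. It differed instead with the route of the water treatment. In wild type it read -0.48, -0.57 and -0.16 after water spray and 0.45, 0.27 and 0.23 after water infiltration. These groups did not overlap, and the difference was 0.71 ± 0.15 (adjusted p = 0.00034). Spraying and infiltration differed in hours after treatment as well, so the route and the time cannot be told apart. After SA, BGLU42 was lower in tbf1 by 0.47 on the log2 scale, with a mean of -0.86 against -0.39 in wild type (adjusted p = 0.00866). This call was lost under quantile normalization, at -0.19 (adjusted p = 0.291), without tbf1 SA array 3, at -0.35 (adjusted p = 0.0693), and with the index as a covariate, at -0.087 (adjusted p = 0.959).

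BGLU15 acts on flavonol bisglycosides. In wild type its level was -0.20, -0.23 and -0.30 after water infiltration and 0.31, 0.48 and 0.37 after elf18, a rise of 0.63 ± 0.13 (adjusted p = 0.000331). The elf18 arrays all lay above the water arrays. SA changed it in tbf1, where the water spray arrays read 0.20, 0.54 and -0.07 and the SA arrays 0.66, 0.97 and 0.75. This rise of 0.57 ± 0.13 passed the test (adjusted p = 0.00162), whereas the wild type change of -0.07 ± 0.13 did not (adjusted p = 0.81). After SA the gene stood 1.1 ± 0.13 higher in tbf1 than in wild type (adjusted p = 1.61e-07), with no overlap between the arrays. The index differed by -2.01 there, and with it as a covariate the difference was 0.75 ± 0.60 and not called (adjusted p = 0.496).

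BGLU45, BGLU46 and BGLU47 belong to the clade of monolignol glucosidases, and BGLU45 and BGLU46 are known to hydrolyse monolignol glucosides. BGLU46 read 0.00, 0.05 and -0.10 after water infiltration in wild type and 1.88, 0.59 and 0.48 after elf18. The elf18 arrays were all higher, but array 1 stood far above the other two. The rise was 1.00 ± 0.22 (adjusted p = 0.000521), and without elf18 array 1 it was 0.56 (adjusted p = 0.00227). In tbf1 the elf18 arrays read 0.09, 0.11 and 0.09 and the change of 0.30 was not called. After elf18 the gene was lower in tbf1 by 0.89 on the log2 scale (adjusted p = 0.00291). Without wild type array 1 this difference was -0.44 (adjusted p = 0.0201), and in a fit of only the arrays compared it was not called (adjusted p = 0.0698).

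BGLU47 fell with SA in both genotypes. The wild type arrays read 0.54, 0.65 and 0.59 after water spray and -0.08, -0.05 and -0.11 after SA. In tbf1 it read 0.71, 1.02 and 0.55 after water spray and 0.20, -0.09 and -0.14 after SA. The groups did not overlap in either genotype, and the gene fell by 0.67 on the log2 scale in wild type (SE 0.15, adjusted p = 0.000627) and fell by 0.76 in tbf1 (SE 0.15, adjusted p = 0.000168). It also fell by 0.51 with elf18 in wild type (adjusted p = 0.00468). BGLU45 moved little, and its rise of 0.30 ± 0.12 with elf18 in tbf1 (adjusted p = 0.0498) lost its call without any 1 of the 6 arrays compared.

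BGLU44 (AT3G18080) encodes an enzyme reported to cleave beta-mannosides. In wild type it read 1.59, 1.84 and 1.73 after water spray and 0.48, 0.55 and 0.56 after SA. After water infiltration it read 1.17, 0.96 and 1.30, and after elf18 it read -2.61, -3.06 and -2.97. Every treated array lay below every water array of the same route. SA lowered the level 2.28-fold, with a log2 change of -1.19 ± 0.13 (adjusted p = 5.3e-08), and elf18 lowered it 16.2-fold, with a log2 change of -4.02 ± 0.13 (adjusted p = 4.34e-17).

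In tbf1 the BGLU44 arrays read -0.41, -0.53 and -0.87 after water spray and -0.57, -0.49 and -0.72 after SA. They read 0.46, 0.41 and 0.49 after water infiltration and -1.01, -1.31 and -1.25 after elf18. The spray groups overlapped and lay well below the wild type, while the elf18 group lay above the wild type elf18 group. The change with SA was 0.01 ± 0.13 and the change with elf18 was -1.65 ± 0.13 (adjusted p = 2.25e-10). In the whole leaf, fewer cells of a type and less RNA per cell cannot be told apart in any of these levels. The leaf marker RCA moved with the elf18 comparison in wild type, by -1.20 ± 0.09, and its part in the BGLU44 fall was not tested.

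BGLU43, the gene next to BGLU44, stayed between -0.14 and 0.12 in its group means and was called in none of the 11 comparisons.

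BGLU40 (AT1G26560) fell with SA in wild type and with elf18 in both genotypes. In wild type it read 0.04, -0.04 and -0.04 after water spray and -0.99, -0.82 and -1.04 after SA. It read 1.02, 0.81 and 0.86 after water infiltration and -0.11, 0.05 and 0.10 after elf18. The treated arrays lay below the water arrays for both treatments, with log2 changes of -0.94 ± 0.11 for SA (adjusted p = 2.96e-07) and -0.88 ± 0.11 for elf18 (adjusted p = 4.63e-07).

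In tbf1 BGLU40 read -0.81, -0.28 and -0.56 after water spray and -0.40, -0.65 and -0.59 after SA. It read 2.41, 2.26 and 2.39 after water infiltration and 0.92, 0.90 and 0.88 after elf18. The spray groups overlapped, and the water infiltration arrays were the highest of all 24. The elf18 change was -1.45 ± 0.11 (adjusted p = 2.08e-10). After water infiltration the gene stood 1.46 ± 0.11 higher in tbf1 than in wild type, or 2.75-fold (adjusted p = 1.09e-09), and after water spray it stood lower by 0.54 on the log2 scale (adjusted p = 0.000279).

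BGLU25 (AT3G03640) rose with SA and fell with elf18. In wild type it read 0.29, 0.46 and 0.38 after water spray and 1.05, 1.48 and 1.37 after SA. It read 0.80, 0.51 and 0.77 after water infiltration and -0.49, -1.23 and -1.08 after elf18. Neither pair of groups overlapped, and the log2 changes were 0.92 ± 0.19 with SA (adjusted p = 0.000361) and -1.63 ± 0.19 with elf18 (adjusted p = 8.33e-08).

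In tbf1 the BGLU25 arrays read -1.13, -1.37 and -1.64 after water spray and -0.66, -0.63 and -1.42 after SA, so these groups overlapped. They read 0.74, 0.99 and 0.62 after water infiltration and -0.38, -0.37 and -0.29 after elf18, with no overlap. The SA change of 0.48 ± 0.19 passed the test narrowly (adjusted p = 0.049), and the elf18 change was -1.13 ± 0.19 (adjusted p = 2.76e-05). Both elf18 calls of BGLU25 were lost once the index entered the fit as a covariate. The log2 changes were then -0.39 ± 0.50 in wild type (adjusted p = 0.65) and 0.0049 ± 0.46 in tbf1. These standard errors were wider than the 0.19 without the index, so the lost calls do not show that the falls are absent.

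BGLU16 (AT3G60130) fell with elf18 in both genotypes. The wild type arrays read 0.17, -0.16 and 0.06 after water infiltration and -1.07, -1.27 and -1.54 after elf18. In tbf1 it read 0.35, 0.34 and 0.16 after water infiltration and -0.79, -0.94 and -0.72 after elf18. The groups did not overlap, and the log2 changes were -1.31 ± 0.12 (adjusted p = 1.89e-09) and -1.10 ± 0.12 (adjusted p = 7.05e-08). SA moved it by -0.04 in wild type and 0.10 in tbf1, neither called. The tbf1 change was -0.90 and no longer called in the fit with the index (adjusted p = 0.0926).

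**Figure D2:**
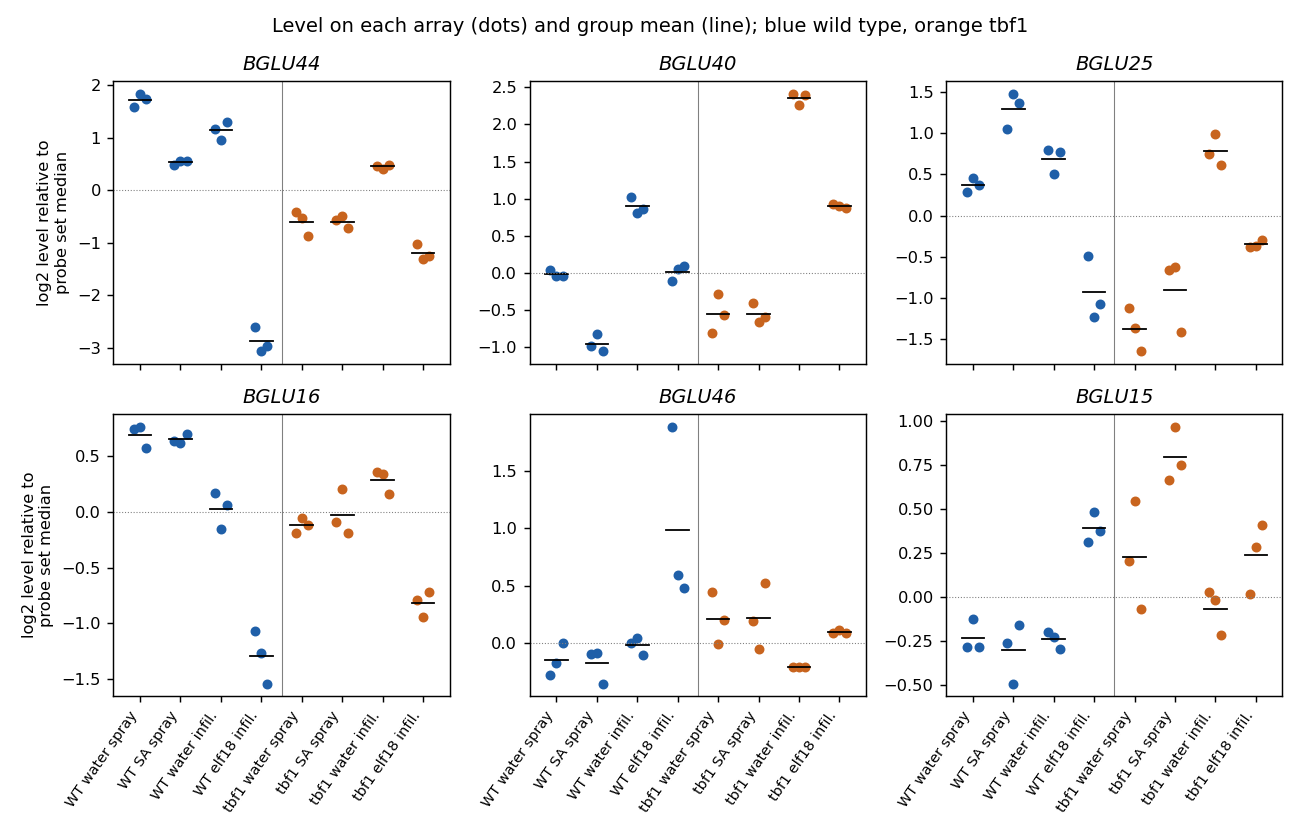
Log2 level on each array (dots, 3 per group) and group mean (line) for 6 genes, relative to the median of the probe set, with wild type in blue and tbf1 in orange. BGLU44 fell to -2.88 in the wild type elf18 group, and in BGLU46 1 of the 3 wild type elf18 arrays, at 1.88, stood above the others at 0.59 and 0.48.

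The remaining genes moved less. BGLU24 read 0.01, -0.12 and 0.12 after water infiltration in wild type and 1.20, 0.43 and 0.12 after elf18. Its rise of 0.58 ± 0.19 (adjusted p = 0.0134) rested on array 1 of the elf18 group, without which it was 0.28 (adjusted p = 0.166). BGLU27 rose by 0.45 ± 0.16 in the same comparison, with arrays of 0.51, 1.05 and 0.07 that overlapped the water arrays. BGLU19 rose by 0.30 ± 0.12 and BGLU32 by 0.25 ± 0.11 there, with adjusted p = 0.0457 and 0.0433. In tbf1 after SA, BGLU19 fell by 0.49 on the log2 scale (adjusted p = 0.0028), and ATA27, named for its expression in the anther tapetum, fell by 0.34 (adjusted p = 0.0499) with overlapping groups. BGLU31, BGLU36 and BGLU41 were called in none of the 11 comparisons, and their group means stayed between -0.12 and 0.23.

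SA in wild type changed few of the genes. BGLU25 rose, while BGLU40, BGLU44 and BGLU47 fell, so that 1 of the 21 was higher and 3 were lower. Among all probe sets 15.1% were higher and 16.8% were lower, so the share of members that moved was no larger than the background. The median change was -0.03 over the members and -0.02 over all probe sets. The index differed by -0.30 in this comparison, and with it as a covariate the changes of the 4 genes kept their direction and their call, with BGLU44 at -1.04 and BGLU40 at -1.07. Its part beyond this was not tested.

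SA in tbf1 called 5 genes, BGLU15 and BGLU25 higher and BGLU19, ATA27 and BGLU47 lower. The background was 19.6% higher and 19.3% lower. The index differed by 0.13, RCA by -0.37 and FAMA by -0.82, and their part was not tested. Of the called genes, BGLU25 and BGLU47 were called in the same direction in wild type, which makes 2 of the 5 genes in tbf1 and 2 of the 4 in wild type. Over all probe sets 53.9% of the rises in wild type and 41.7% of those in tbf1 were shared, and 31.4% and 27.3% of the falls. The count of genes called with SA in tbf1 fell to 3 without array 3 of tbf1 water spray.

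The SA response differed between the genotypes for 3 genes, and in each the value of tbf1 minus wild type was positive. It was 1.20 ± 0.18 for BGLU44 (adjusted p = 1.47e-05), 0.94 ± 0.16 for BGLU40 (adjusted p = 6.65e-05) and 0.64 ± 0.19 for BGLU15 (adjusted p = 0.0127). For BGLU44 and BGLU40 the wild type fell and tbf1 had changes of 0.01 and 0.00, from a water spray level that was already below that of the wild type. For BGLU15 the rise was in tbf1. The background of this comparison was 16.6% higher and 12.7% lower. No gene of the family passed in limma with a lower value without the index in the fit, and at an unadjusted p below 0.05 there was 1, BGLU19. The index difference of tbf1 minus wild type in this response was 0.43. With the index as a covariate limma called 4 genes, BGLU25 beside these 3, and 25.3% of all probe sets. In that fit tbf1 minus wild type for BGLU25 was 0.58 after water spray and -0.28 after SA, so its value was lower.

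elf18 in wild type changed 14 of the 21 genes. The 8 that rose were BGLU46, BGLU15, BGLU24, BGLU27, BGLU28, BGLU19, BGLU29 and BGLU32, with changes of 0.25 to 1.00. The 6 that fell were BGLU44, BGLU25, BGLU16, BGLU40, BGLU33 and BGLU47, with changes of -4.02 to -0.51. The background was 31.2% higher and 26.9% lower, so the family's counts lay near it, and the median change was 0.15 over the members and 0.13 over all probe sets. The fall of BGLU44 was far larger than any rise, and 4 genes changed at least 2-fold, BGLU44, BGLU25 and BGLU16 downward and BGLU46 upward.

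The index differed by -1.29 between wild type elf18 and water infiltration. In the fit that takes the index as a covariate 5 of the 14 calls were left. Among them were BGLU44 at -3.38 ± 0.36 (adjusted p = 2.92e-06), BGLU40 at -1.47 ± 0.32 and BGLU16 at -1.09 ± 0.36 (adjusted p = 0.041). BGLU46 was also left, at 2.31 ± 0.61 against 1.00 ± 0.22 without the index. Its outlying array, wild type elf18 array 1, had the highest index of its group, -0.81 against -1.02 and -1.12. The part of this array in the value of 2.31 was not tested. In the fit with the index BGLU15 was at 0.41 ± 0.40 and not called (adjusted p = 0.533), and 16.6% of all probe sets were called. Without array 1 of wild type elf18 the count was 9.

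elf18 in tbf1 changed 5 genes. BGLU44, BGLU40, BGLU25 and BGLU16 fell, by 1.1 to 1.65 on the log2 scale, and BGLU45 rose slightly. The background was 18% higher and 23.8% lower. All 4 of the genes that fell were also among the 6 that fell in wild type, and the arrays of these comparisons are separate. Over all probe sets 70.8% of the falls in wild type and 80.1% of those in tbf1 were shared. The 1 gene that rose in tbf1 was not among the 8 that rose in wild type. The index differed by -1.19, close to the difference in wild type, RCA by -0.62 and FAMA by -0.48. With the index as a covariate BGLU40, at -2.0, and BGLU44, at -1.06 (adjusted p = 0.0468), kept their calls, and 10.2% of all probe sets were called.

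The elf18 response differed between the genotypes for 2 genes, in opposite directions. For BGLU44 the value of tbf1 minus wild type was 2.37 ± 0.18 (adjusted p = 7.91e-09), as the fall was smaller in tbf1. For BGLU40 it was -0.57 ± 0.16 (adjusted p = 0.0165), as the fall was larger in tbf1, from a water level that was higher. Quantile normalization reduced the BGLU40 difference to -0.16 and ended its call (adjusted p = 0.551), while the BGLU44 difference lay between 2.19 and 2.51 in all alternatives and was called in each. The background was 9.82% higher and 5.67% lower. The index difference of tbf1 minus wild type in this response was 0.11, and that of RCA was 0.58.

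**Figure D3:**
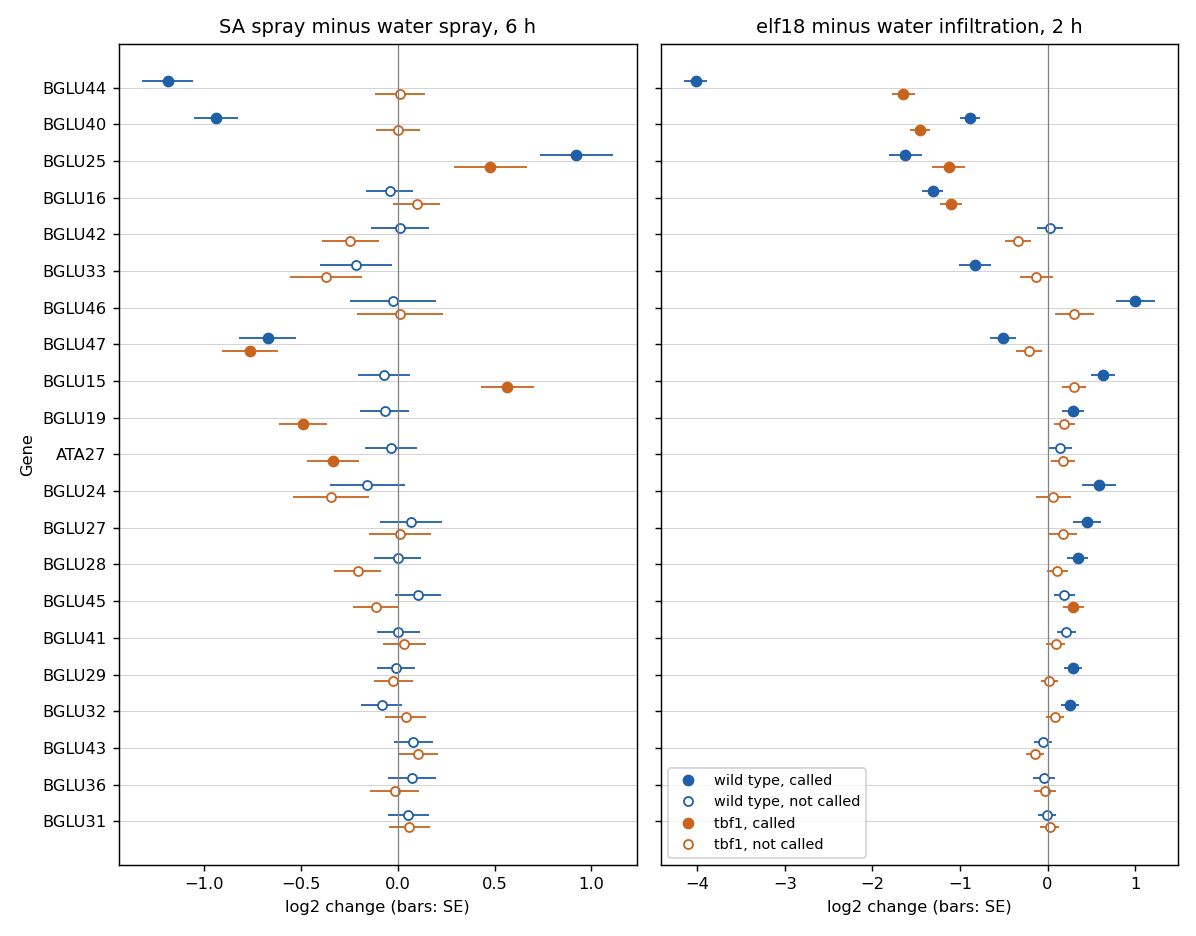
Log2 change (dots) with its standard error (bars) of each of the 21 genes with SA (left) and elf18 (right) against the water treatment of the same route, in wild type (blue) and tbf1 (orange), with filled dots for called changes. BGLU44 fell by 4.02 with elf18 in wild type against 1.65 in tbf1, and with SA BGLU44 and BGLU40 changed in wild type while their tbf1 changes lay at 0.

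After water spray, tbf1 differed from the wild type in 10 of the 21 genes. BGLU44 stood at -0.61 against 1.72, a log2 difference of -2.33 ± 0.13 or 5.02-fold (adjusted p = 3.29e-13), and BGLU25 at -1.38 against 0.38, a difference of -1.76 ± 0.19 (adjusted p = 2.39e-08). BGLU16 and BGLU40 were also lower, by -0.81 and -0.54. BGLU19, BGLU24, BGLU28, BGLU15, ATA27 and BGLU45 were higher, by 0.37 to 0.67. The background was large, with 39.9% of probe sets higher and 28.8% lower, and the median of all probe sets was shifted by 0.18, or by 0.07 with each array centred on its median.

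This comparison had the largest difference in the index, -2.44, and RCA differed by -0.97. With the index as a covariate limma called 0 of the 21 genes and 0.954% of all probe sets, BGLU44 being at -1.11 (adjusted p = 0.395) and BGLU25 at 0.58. At an unadjusted p below 0.05 that fit had 2 genes, BGLU40 and BGLU46. The genotype and the index cannot be told apart here. The 4 genes that were lower in tbf1 after water spray were the same 4 that fell with elf18 in tbf1, BGLU16, BGLU25, BGLU40 and BGLU44, in comparisons without common arrays. Over all probe sets, 78.7% of those that fell with elf18 in tbf1 were also lower after water spray, and these made 64.8% of the latter, so the overlap was large throughout the array. Of the 8 genes that rose with elf18 in wild type, 4 were among the 6 that were higher in tbf1 after water spray, namely BGLU15, BGLU19, BGLU24 and BGLU28. These comparisons also share no arrays, and the corresponding shares over all probe sets were 67.5% and 52.8%.

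**Figure D4:**
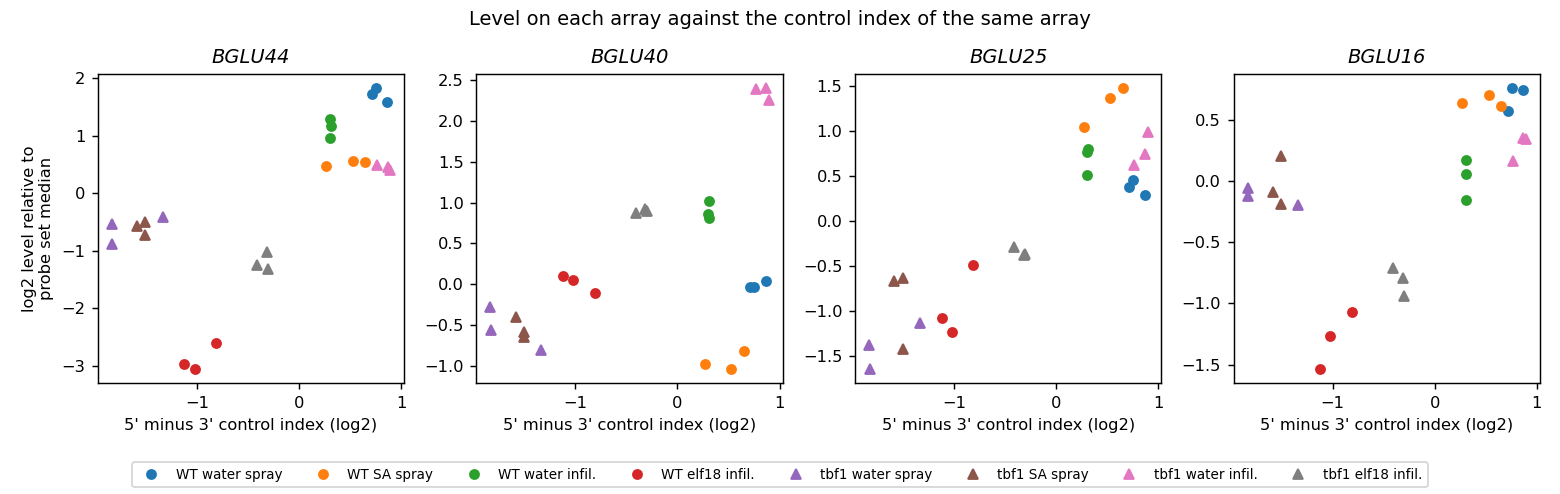
Log2 level of 4 genes on each of the 24 arrays (vertical axis) against the 5′ minus 3′ index of the control probe sets on the same array (horizontal axis, log2), with circles for wild type and triangles for tbf1. The levels of BGLU25 were low in the groups with a low index, while BGLU40 was at -0.95 in wild type after SA, with a mean index of 0.48, and at 2.35 in tbf1 after water infiltration, with a mean index of 0.84.

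After water infiltration the genotypes differed in 3 genes. BGLU40 was higher in tbf1, as given above, while BGLU44 was lower by 0.69 on the log2 scale (adjusted p = 0.000339) and BGLU47 was lower by 0.50 (adjusted p = 0.0151). The background was 12% higher and 8.55% lower, and the index differed by 0.54 and FAMA by 0.49. In the fit with the index the infiltration difference of BGLU44 was -0.95 (adjusted p = 0.00121) and that of BGLU40 was 1.70 (adjusted p = 1.96e-07), while BGLU47 was at -0.21 and not called (adjusted p = 0.597). BGLU47 also lost its call without wild type array 3 (adjusted p = 0.0541) or tbf1 array 1 (adjusted p = 0.102).

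After SA 7 genes differed between the genotypes. BGLU15, BGLU40 and BGLU28 were higher in tbf1, by 0.29 to 1.1, and BGLU25, BGLU44, BGLU16 and BGLU42 were lower. BGLU28, at 0.29 (adjusted p = 0.0418), lost its call under centring (adjusted p = 0.131) and quantile normalization (adjusted p = 0.238). It also lost it without array 1 or array 2 of either SA group (adjusted p = 0.0598 to 0.143). The difference of BGLU25 was -2.20 ± 0.19 (adjusted p = 3.8e-10) and that of BGLU44 was -1.12 ± 0.13 (adjusted p = 6.27e-08). The background was 31.1% higher and 27% lower. The index differed by -2.01, with arrays at 0.27 to 0.65 in wild type and -1.58 to -1.50 in tbf1. The genotype and the index thus cannot be told apart here either. RCA differed by -1.24 ± 0.09 (adjusted p = 3.14e-11) and FAMA by -0.57 ± 0.15 (adjusted p = 0.00213), and the part of these markers was not tested. With the index as a covariate limma called 0 of the 21 genes and 6.01% of all probe sets. BGLU25 was then at -0.28 ± 0.75 and BGLU44 at -0.12 ± 0.55, so precision was low in that fit. At an unadjusted p below 0.05 that fit had 2 genes, BGLU19 and BGLU46.

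After elf18 9 genes differed. BGLU44, BGLU40, BGLU33, BGLU25 and BGLU16 were higher in tbf1, by 0.48 to 1.69, and BGLU46, BGLU24, BGLU27 and BGLU28 were lower, by -0.89 to -0.34. The background was 20.8% higher and 16.1% lower, and the index differed by 0.64. BGLU44 stood at -1.19 in tbf1 against -2.88 in wild type, a difference of 1.69 ± 0.13 (adjusted p = 8.03e-10). In the fit with the index this difference was 1.37 (adjusted p = 0.000104), and BGLU27, BGLU33, BGLU40 and BGLU46 were the other genes called, beside 18.5% of all probe sets. BGLU25 was then at -0.026 (adjusted p = 0.966), and BGLU16, BGLU24 and BGLU28 lost their calls. Without wild type elf18 array 1 BGLU24 was at -0.34 and not called (adjusted p = 0.118). BGLU28 lost its call without any of 4 of the arrays and under centring, quantile normalization and array weights, with an adjusted p of up to 0.189 in these scalings. RCA differed by 0.64 in this comparison.

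The water treatments also differed from each other in wild type, in route and in time together. Infiltration at 2 h against spraying at 6 h gave higher levels of BGLU40, by 0.91 ± 0.11, and BGLU42, by 0.71 ± 0.15. BGLU16 and BGLU44 were lower, by -0.67 and -0.58, and the BGLU44 difference was -0.34 and not called once the index entered the fit (adjusted p = 0.152). These 4 calls compare with a background of 14% higher and 21.8% lower. Between these groups the index differed by -0.47.

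Several of the genes lie next to each other, with no protein-coding gene between them in the RefSeq table of assembly TAIR10.1, and neighbours did not share their changes throughout. BGLU44 had a range of 4.60 over the group means while its neighbour BGLU43 had one of 0.26. BGLU16 fell by 1.31 with elf18 in wild type while its neighbour BGLU27 rose by 0.45. BGLU46 rose by 1.00 there while BGLU45 changed by 0.19 and was not called. In the run of BGLU15, BGLU28 and BGLU29 all 3 genes rose with elf18 in wild type, by 0.63, 0.34 and 0.29, and with SA in tbf1 only BGLU15 of the 3 was called. BGLU31 and BGLU32 both had narrow ranges, 0.22 and 0.26.

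**Figure D5:**
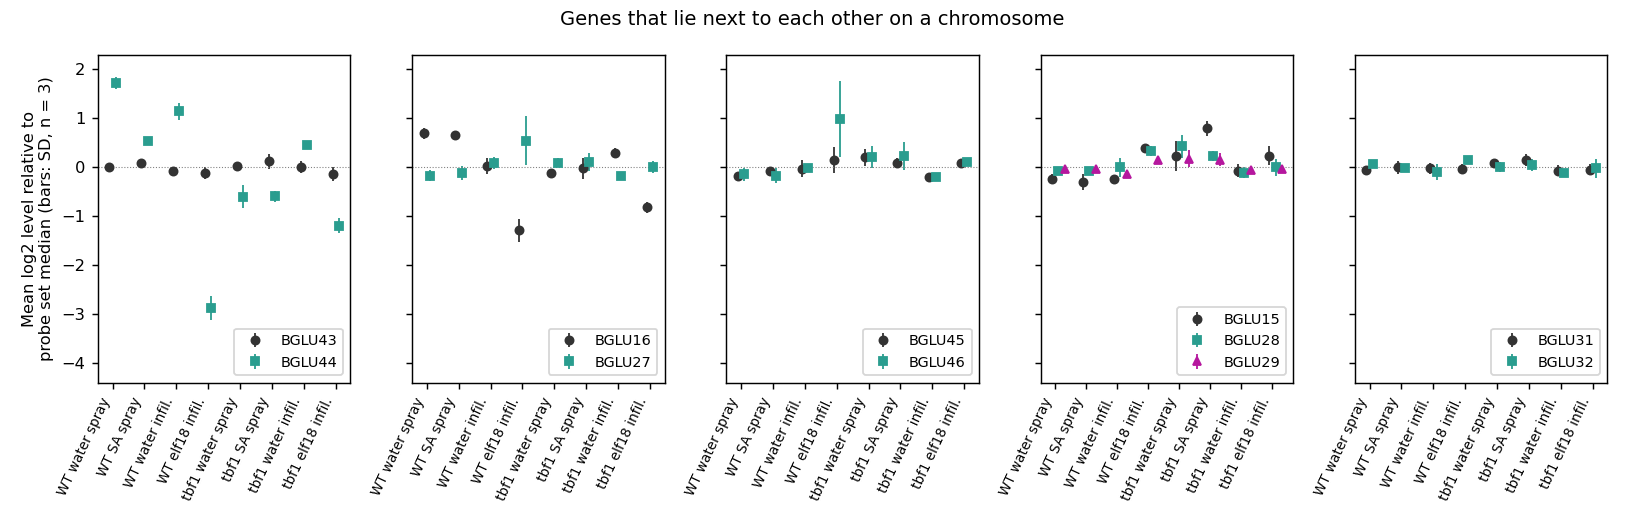
Mean log2 level with its SD (3 arrays) in the 8 groups for genes that lie next to each other, relative to the median of each probe set. BGLU43 stayed between -0.14 and 0.12 while BGLU44 ran from 1.72 to -2.88, and BGLU16 fell to -1.29 after elf18 in wild type where BGLU27 was at 0.54.

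Genes that make, move or glucosylate likely substrates were listed separately, and 30 of the 119 entries of all lists had a 1-gene probe set. Of the glucosinolate synthesis genes 4 of 48 were measured, and with elf18 all 4 fell in both genotypes. Among all probe sets 26.9% fell with elf18 in wild type and 23.8% in tbf1. The index differed by -1.29 in wild type and -1.19 in tbf1 there. Once it entered the fit, 3 genes were still called in wild type while the 4 calls in tbf1 were lost. In that fit of tbf1 GSTU20 was at -0.56 (adjusted p = 0.161) and UGT74C1 at -1.08 (adjusted p = 0.13). The median change of the 4 genes without the covariate was -1.21 in wild type and -0.57 in tbf1, beside 0.13 and 0.07 over all probe sets. The S-glucosyltransferase UGT74B1 changed by -1.77 ± 0.10 in wild type (adjusted p = 1.71e-13) and -0.48 ± 0.10 in tbf1, a difference of 1.28 ± 0.14 (adjusted p = 7.92e-07). GSTU20, a glutathione transferase tied to aliphatic glucosinolates, changed by -1.24 and -0.81, and UGT74C1 by -1.18 and -0.56. With SA 3 of the 4 fell in each genotype, and the medians were -1.05 and -0.39 beside -0.02 and -0.08. Among all probe sets 16.8% fell with SA in wild type and 19.3% in tbf1. BCAT4, which starts the chain elongation of methionine, fell by 1.57 on the log2 scale in wild type and fell by 0.32 in tbf1. The difference was 1.24 ± 0.15 (adjusted p = 4.5e-07). Its tbf1 call was lost under quantile normalization (adjusted p = 0.065), with array weights (0.127) and with only the arrays compared (0.139). UGT74B1 was not called with SA.

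The glucosinolate transporters GTR1 and GTR2, the measured 2 of 17 genes of breakdown and transport, rose with SA in both genotypes. GTR1 rose by 0.89 ± 0.15 in wild type and 1.79 ± 0.15 in tbf1, and GTR2 by 0.51 and, narrowly past the test, 0.41 (adjusted p = 0.0451). GTR2 lost its call under quantile normalization in tbf1, at 0.18, and with the index as a covariate in wild type, at 0.30. With elf18 GTR1 changed by -2.29 ± 0.15 in wild type (adjusted p = 2.28e-12) and -0.95 ± 0.15 in tbf1, a difference of 1.34 ± 0.21 (adjusted p = 7.18e-05). GTR2 fell by 0.89 in wild type. The GTR1 fall in tbf1 lost its call in the fit with the index, at -0.51 (adjusted p = 0.457).

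Of the genes of ER bodies, the endoplasmic reticulum compartments that hold some beta-glucosidases, 5 of 13 were measured. With elf18 in wild type 2 rose and 1 fell, beside 31.2% and 26.9% of all probe sets. The jacalin-related lectin JAL22 rose by 0.72 ± 0.14 (adjusted p = 0.000115) and JAL33 by 0.28 ± 0.12, and JAL23 changed by -0.47 ± 0.18 (adjusted p = 0.0288). The JAL33 call was lost under centring, quantile normalization and array weights and with only the arrays compared, at adjusted p = 0.0674 to 0.305. In tbf1 JAL23 alone was called with elf18, at -0.62. Both JAL23 changes turned direction with the index as a covariate, to 0.22 and 0.011, and JAL22, at 0.72, and JAL33, at 0.20, were then not called in wild type. The median change of the 5 genes in wild type was 0.26 with elf18 and 0.02 with SA, beside 0.13 and -0.02 over all probe sets. With SA JAL23 changed by -0.53 in wild type and 0.69 in tbf1, a difference of 1.22 ± 0.25 (adjusted p = 0.000533). The wild type change was not called with the index as a covariate, at -0.37 (adjusted p = 0.2). The tbf1 change was not called in a fit of only the arrays compared (adjusted p = 0.0785). NAI1 and NAI2, which are needed to form ER bodies, were not called with either treatment.

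Of 6 coumarin genes 3 were measured. F6′H1, which makes the coumarin precursor, is listed here as AT3G13610 and rose with SA by 3.38 ± 0.17 in wild type and 1.81 ± 0.17 in tbf1, and the difference was -1.57 ± 0.25 (adjusted p = 1.85e-05). With elf18 it changed by -1.07 ± 0.17 in wild type, and with the index in the fit by -1.22, not called (adjusted p = 0.114). COSY, which closes the coumarin ring, rose in wild type by 0.61 with SA and 0.58 with elf18 and was not called in tbf1. Its elf18 rise was not called in the fit with the index, at 0.52. S8H was not called in these comparisons. The median over the 3 genes was 0.61 with SA and 0.14 with elf18 in wild type, beside -0.02 and 0.13 over all probe sets.

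The glucosyltransferases, which run the reaction in the direction of conjugation, moved in both directions, with 14 of 18 measured. With SA 4 rose and 3 fell in wild type, and 5 rose and 1 fell in tbf1. Among all probe sets 15.1% rose and 16.8% fell in wild type, and 19.6% and 19.3% in tbf1. The median change of the 14 genes in wild type was 0.08 with SA and 0.12 with elf18, beside -0.02 and 0.13 over all probe sets. UGT76B1, which glucosylates SA, rose by 6.24 ± 0.35 in wild type and 3.27 ± 0.35 in tbf1. UGT89C1, a flavonol rhamnosyltransferase, rose by 1.20 and 0.83. With elf18 4 rose and 3 fell in wild type and 2 rose and 3 fell in tbf1. The background was 31.2% higher and 26.9% lower in wild type, and 18% and 23.8% in tbf1. UGT72E1, which acts on monolignols and related compounds, rose by 1.65 ± 0.12 (adjusted p = 1.97e-11) and 1.18 ± 0.12 (adjusted p = 1.55e-08), and the flavonol transferase UGT78D1 changed by -1.15 and -0.75. UGT89C1 changed by -0.96 and -0.44. Neither UGT78D1 nor, in wild type, UGT89C1 was called with the index as a covariate, while UGT72E1 was called in both genotypes. In the response to SA 2 of these genes were higher and 1 lower in tbf1 than in wild type, and in the response to elf18 2 were lower. The background was 16.6% higher and 12.7% lower for SA, and 9.82% and 5.67% for elf18. UGT76C2, which acts on cytokinins, differed by -0.71 ± 0.24 and UGT71C5, which acts on abscisic acid, by -0.51 ± 0.17 in the elf18 response. Both calls were lost with arrays centred on their median (adjusted p = 0.051 and 0.0567) and under quantile normalization, at -0.51 and -0.08.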

How the data were processed

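RNA from 24 leaf samples was hybridised to 1-channel arrays, 3 per group. The authors' deposited table holds log2 values made with RMA, per the submitters' processing notes. The sources used here give no version, and the log base, not stated, was read as 2. The table holds each probe set centred on its median over the 24 arrays, as was checked on the file. The values were used as deposited. Tests ran without the 64 controls. Genes were named from the platform annotation and RefSeq (TAIR10.1): 13513 probe sets had 1 gene, 503 several and 8730 none, which means unnamed here. No probe set is named for TBF1, so the transcript of the mutated gene was not analysed here.

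All 24 arrays were fitted in limma 3.58.1 under R 4.3.3 (lmFit, contrasts.fit, eBayes), giving each group its own mean and leaving 16 residual degrees of freedom. Within each of the 11 comparisons the Benjamini-Hochberg adjustment ran over 22746 probe sets, and called means an adjusted p below 0.05. Called genes of the pathway lists were named by size of change, up to 3 per comparison. In each comparison the 4 largest rises and 4 largest falls among called members without overlap were named, BGLU44 always, and the other members with a range or a change. The members and lists were chosen with earlier results of these data known. Motif searches of promoters were not run, as no sequence was used here. The fit was tested on simulated data. Alternatives were a replicate block, centring or quantile normalization of arrays, only the arrays compared, group-wise array weights, the 5′ minus 3′ index as a covariate, a 2-fold minimum, leaving out shared probe set classes and leaving out each array. The number of arrays limits the precision.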

Additional observations from a re-analysis of the deposited data

Results flagged for a closer look

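In all, 5 responses differed between the genotypes by a test of the difference itself, the interaction in limma. In the SA response tbf1 minus wild type was 1.20 for BGLU44, 0.94 for BGLU40 and 0.64 for BGLU15. In the elf18 response it was 2.37 for BGLU44 and -0.57 for BGLU40. Arrays standing apart within a group were not tested, since all groups had 3 arrays.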

How the results depend on the processing

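The number of members called was 4 with SA in wild type, 5 with SA in tbf1, 14 and 5 with elf18, 3 and 2 for the genotype differences in the SA and elf18 responses, 10, 3, 7 and 9 between genotypes after water spray, water infiltration, SA and elf18, and 4 between the water routes. A 2-fold minimum left 1, 0, 4, 4, 1, 1, 2, 1, 3, 1 and 0 in that order. Quantile normalization gave 3 with SA in tbf1, 9 with elf18 in wild type and 1 for the elf18 difference. With only the arrays compared, SA in tbf1 had 2, elf18 in tbf1 8, water infiltration 5, elf18 between genotypes 5 and the water routes 7. Array weights gave 3 with SA in tbf1, 5 after water infiltration and 4 for the elf18 difference. With the index as a covariate, SA in tbf1 had 3, elf18 in wild type 5, elf18 in tbf1 2, water spray 0, SA between genotypes 0 and elf18 between genotypes 5. The shares of all probe sets called there were 37.9%, 16.6%, 10.2%, 0.954%, 6.01% and 18.5% in that order. Standard errors widened there for groups far apart in the index, for BGLU44 after water spray from 0.13 to 0.66. In that fit 8 named changes turned direction: BGLU25 to 0.0049 with elf18 in tbf1, 0.58 after water spray and -0.026 after elf18, ATA27 to -0.22 and BGLU19 to -1.08 after water spray, BGLU40 to -0.52 after SA, and JAL23 to 0.22 and 0.011 with elf18 in wild type and tbf1. The cause was not tested.

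Leaving out 1 array gave 3 to 6 members with SA in tbf1, 9 to 13 with elf18 in wild type and 2 to 4 for the elf18 difference, the last at 4 without array 3 of wild type elf18. BGLU44 kept its direction and call with SA and elf18 in wild type, with elf18 in tbf1 and in both genotype differences of the response under every alternative, at -1.39 to -1.04, -4.37 to -3.38, -2.17 to -1.06, 0.99 to 1.30 and 2.19 to 2.51. Same-numbered arrays deviated together at -0.16 to 0.28, and in no comparison were all 3 pairs over 0.1, so the numbers were not taken to pair the samples. With the replicate number as a block the member counts were 4, 5, 14 and 5 for the treatments, and GTR2 lost its call with SA in tbf1 (0.41, adjusted p = 0.0535). Leaving out shared probe set classes changed no count, as no member has one. Centred values give no signal over background.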

Other observations

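A pair of related probe sets lay just outside the rule. PYK10, the main beta-glucosidase of ER bodies in seedlings and roots, carries its BGLU23 name only as a synonym without the words of the rule. It read -0.16, -0.21 and -0.10 in wild type after water spray and -0.20, 0.00 and -0.27 after SA, while in tbf1 it read 0.70, 0.94 and 0.31 after water spray and 1.22, 1.41 and 1.52 after SA. In these sprayed groups the tbf1 arrays were all higher than the wild type arrays. After water infiltration the mean was -0.23 in tbf1 against 0.03 in wild type, and after elf18 0.0009 against 0.28, neither difference called. The change with SA was 0.00 ± 0.14 in wild type and 0.73 ± 0.14 in tbf1 (adjusted p = 0.00023 in limma), and the genotype difference of the response was 0.73 ± 0.20 (adjusted p = 0.00764). After SA the gene stood 1.54 higher in tbf1 (adjusted p = 1.58e-09), where the index differed by -2.01. A probe set shared by BGLU21 and BGLU22 rose with elf18 in wild type by 0.31 ± 0.10 (adjusted p = 0.00923).

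BGLU40 stood 2.90 higher and BGLU42 1.23 higher in tbf1 after water infiltration than in tbf1 after water spray. These differences were not among the tested comparisons, and the index of the groups was 0.84 and -1.67.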
